A study of Mus musculus with 20 samples.

Results

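The genes described here are those that encode the SR proteins, the hnRNPs, the SF3A and SF3B subunits of the U2 snRNP and the U2AF factors. The rule uses only gene names (symbols that begin with Srsf and a digit, Hnrnp, Sf3a or Sf3b and a digit, or U2af), and 43 of the 24411 genes in the RNA-seq files matched: 11 SR proteins, 20 hnRNPs, 3 SF3A subunits, 6 SF3B subunits and 3 U2AF genes. SR proteins bind exonic enhancers and recruit the splicing machinery, hnRNPs coat nascent RNA and often oppose the use of a splice site, U2AF reads the polypyrimidine tract and the AG at the end of an intron, and SF3A and SF3B are the parts of the U2 snRNP that clamp it onto the branch site. In the mouse the embryonic genome is switched on at the 2-cell stage, and maternal transcripts stored in the oocyte are cleared over the same period.

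The embryos were produced by in vitro fertilisation of superovulated oocytes and cultured in KSOM, and each RNA library was made from a pool of 10 embryos with a SMART-Seq kit. In the knockdown experiment, 1-cell embryos were electroporated 3 h after insemination with a non-targeting siRNA (siControl) or an siRNA against Pcgf5 (siPcgf5), and were collected as late 2-cell embryos at 36 h or morulae at 72 h, with 2 libraries per group. Pcgf5 encodes a PCGF subunit of a variant Polycomb repressive complex. In the deletion experiment, 4-cell embryos at 48 h were WT (2 libraries) or carried the allele labelled Pcgf5MT2C_Mm KO, as Hetero KO (3 libraries) or Homo KO (3 libraries). Strains, the parents of each genotype and the extent of the deleted repeat are not given in the sources used here, nor is it stated that pools came from separate fertilisations, so p-values measure only the spread between these pools. The number of embryos is fixed per pool, but a pool of dividing embryos is a bulk sample in which fewer cells and less RNA per cell cannot be told apart.

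Summed expected counts were 14310634 to 55620137 per library, lowest in the 4-cell libraries. CPM after TMM scaling (counts scaled to library size) are used for 1 gene across libraries, and TPM, which is per transcript length, for comparing genes. Pcgf5 was at 316 and 811 CPM in siControl and 53.9 and 89.4 CPM in siPcgf5 late 2-cell libraries, at 166 to 246 CPM in siControl and 32.4 to 39.5 CPM in siPcgf5 morulae, and at 294 to 328, 252 to 336 and 162 to 211 CPM in WT, Hetero KO and Homo KO embryos. The stage labels matched their markers: the summed CPM of 6 late 2-cell genes (Zscan4 and others) was 1410 to 2820 at late 2-cell, 20.8 to 317 at 4-cell and 6.26 to 13.8 at morula, and that of 8 morula genes was 42.1 to 50.1, 28.4 to 63.1 and 334 to 464. The summed CPM of 5 oocyte genes was 9380 to 15100, 806 to 3340 and 45.4 to 81.9, and it moves with every stage result that follows, in which its part was not tested. Markers of other cells moved with stage as well. Cumulus genes (8, Amh at 0 in all late 2-cell libraries) summed to 21.1 to 38.6 CPM at late 2-cell, 0.889 to 13.8 at 4-cell and 0 to 0.263 at morula. Blood genes (6, Hbb-bs and Hbb-bt at 0 in all stages) summed to 248 to 354 CPM at late 2-cell, 18.8 to 83.3 at 4-cell and 16.5 to 19.3 in siControl morulae, and sperm genes (5) to 10.3 to 14.3, 1.16 to 2.15 and 0.748 to 1.58 CPM. Their part in the stage results was not tested.

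The 43 genes took 0.761 to 0.962% of the counts at late 2-cell, 1.29 to 1.46% at 4-cell and 1.17 to 1.31% at morula. The lowest share was that of siControl late 2-cell replicate 1. In TPM, which is free of the TMM factors, they summed to 5210 to 6645, 7854 to 8990 and 6015 to 6678, so that the total was highest at 4-cell and the late 2-cell and morula ranges overlapped. The make-up of that total differed between stages. At late 2-cell the leading gene was Srsf7 (median 829 TPM), followed by Sf3b6 (747), Srsf5 (689), Hnrnpc (591) and Hnrnpa1 (471), and the range of each over the 4 libraries overlapped that of the next. Hnrnpc led at 4-cell (1117 TPM) and Sf3b6 at morula (626 TPM, against 586 for Hnrnpc, with overlapping ranges), and Srsf3 was among the top 6 at 4-cell (570 TPM) and ranked behind only these at morula (537 TPM). Srsf12 was close to absent, at 0 to 0.64 TPM in the 16 libraries.

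**Figure D1:**
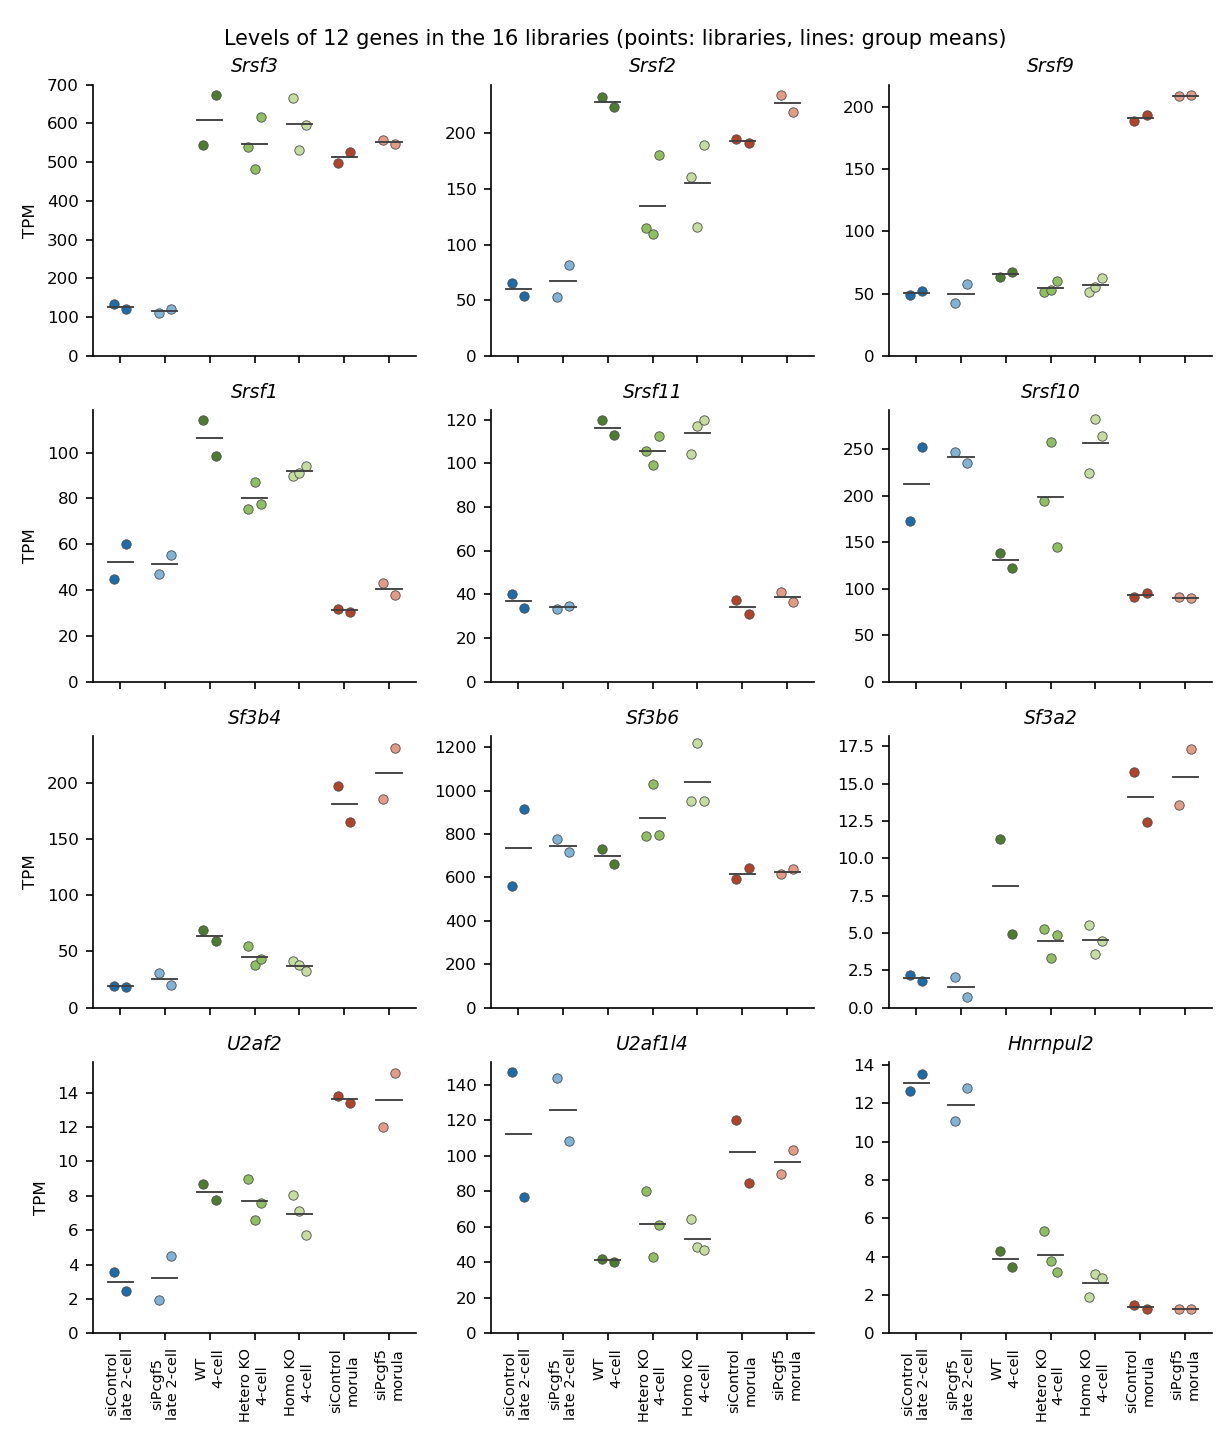
TPM (y axis, from 0) of 12 genes in each of the 16 libraries, grouped on the x axis by stage and treatment or genotype, with points for libraries and lines for group means. Srsf9 and Sf3b4 stand high in the 4 morula libraries, Srsf3 is low in the 4 late 2-cell libraries, and Srsf1 and Srsf11 are highest in the 8 4-cell libraries.

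For the control embryos, the comparison of siControl morula with siControl late 2-cell asks how each gene's TMM-scaled level changed over the period after genome activation. Of the 43 genes, 31 were higher at morula, 2 were lower (Hnrnpul2 and Hnrnph3) and 10 were not called (edgeR quasi-likelihood test, Benjamini-Hochberg adjusted p under 0.05), where 24.9% of all 16980 genes tested were called higher and 28.1% lower. The median log2 fold change of the 43 was 1.39, against -0.34 over all genes. By role, 5 of 11 SR proteins, 14 of 20 hnRNPs, 3 of 3 SF3A, 6 of 6 SF3B and 3 of 3 U2AF genes rose with TMM, and both genes that fell were hnRNPs.

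These counts depended on the scaling. Relative to TMM, the median of all genes shifted by -0.17 with DESeq2 size factors, by -0.64 with total counts and by -0.16 with log2(TPM + 1). The last value also reflects the 1 added to each TPM, which shrinks the changes of genes at low TPM. It is not the shift of well-expressed genes: Hnrnpk went from 1.72 with TMM to 0.72 on TPM and Srsf7 from -0.01 to -0.99. The share of calls in the higher direction over all genes was 47.0% with TMM and 42.7% with size factors. It was 31.4% with total counts and 24.9% with TPM. The 43 genes gave 27 higher and 2 lower with size factors, 23 and 6 with total counts and 18 and 8 with TPM, and their median stayed positive, at 1.22, 0.75 and 0.34. Under all 4 scalings 18 genes were called higher and 2 lower, 12 differed in sign between scalings, and the other 11 kept a sign without a call in all 4. The matching count over all 16980 genes was not taken. Of these, TMM called 4220 higher and 4766 lower, and TPM called 2452 higher and 7388 lower. The 18, of which 4 were SR proteins, 7 hnRNPs, 2 SF3A, 4 SF3B and 1 U2AF, were Srsf2, Srsf3, Srsf6, Srsf9, Hnrnpa0, Hnrnpa2b1, Hnrnpab, Hnrnpd, Hnrnpk, Hnrnpl, Hnrnpll, Sf3a2, Sf3a3, Sf3b1, Sf3b2, Sf3b3, Sf3b4 and U2af2. Leaving out each library in turn kept 28 of the 33 calls, and the calls lost were those of Hnrnph1, Hnrnpa1, U2af1l4, Sf3b6 and Hnrnph3. Without siControl late 2-cell replicate 1, the library with the lowest share, 30 genes were higher and 3 lower, the added one being Srsf10 (-0.51, edgeR adjusted p = 0.0186).

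**Figure D2:**
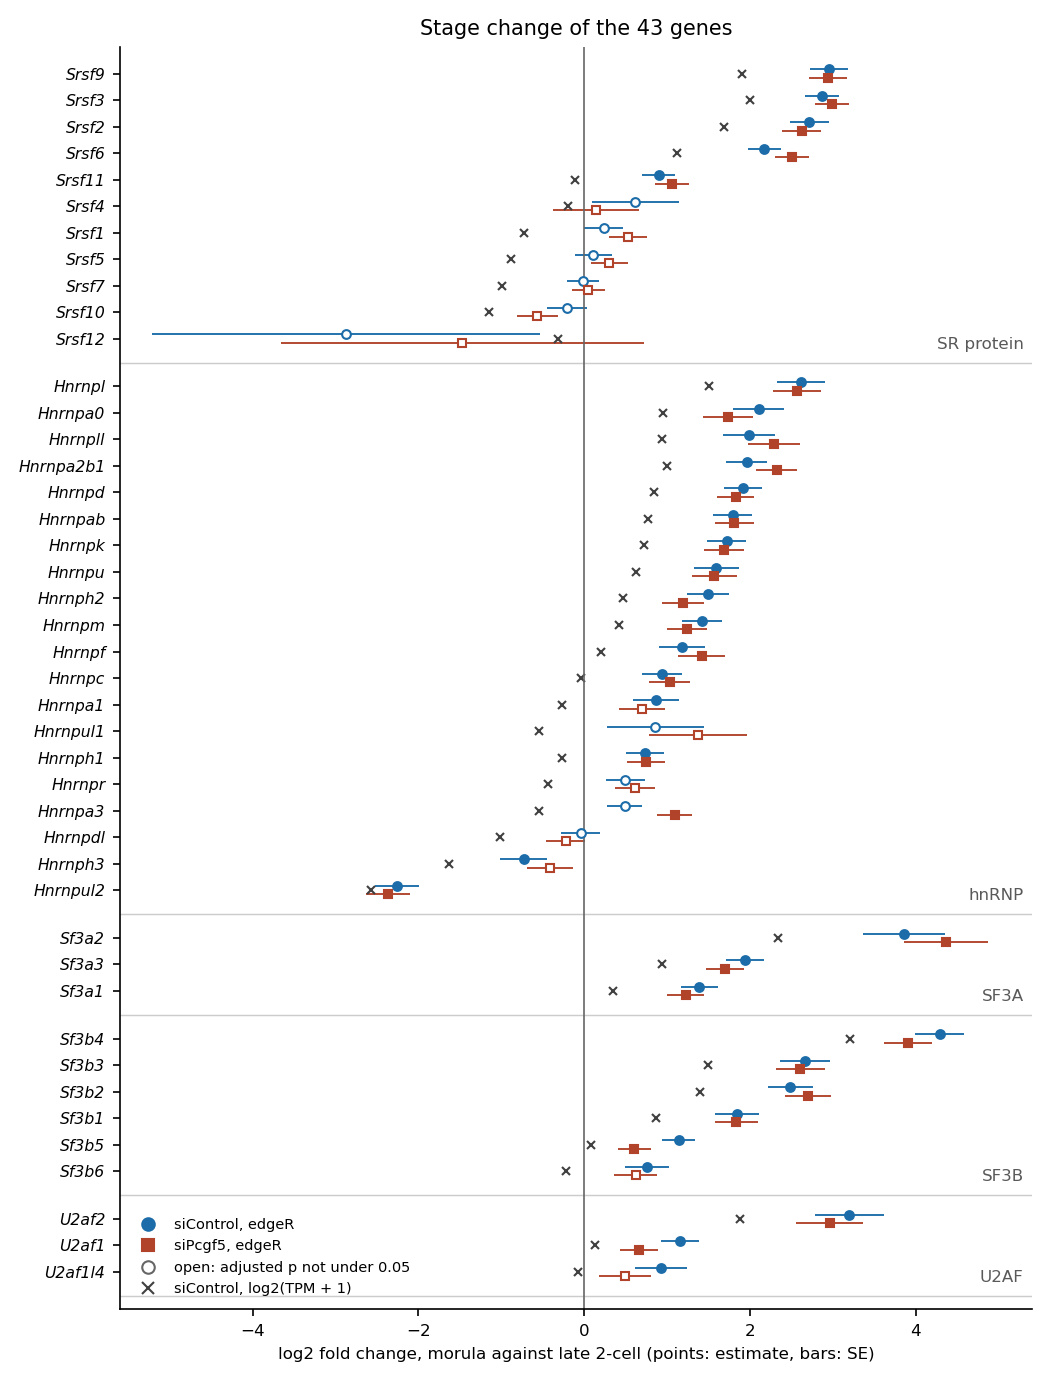
Log2 fold change of morula against late 2-cell (x axis) for each of the 43 genes (y axis, by role), as edgeR estimates with SE bars in siControl (circles) and siPcgf5 (squares), filled where the adjusted p was under 0.05, with crosses for siControl on log2(TPM + 1). The crosses lie to the left of the circles for all genes but Srsf12, and 18 genes keep a called rise under all 4 scalings.

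Among the SF3B genes, Sf3b4, which encodes an RNA-binding subunit that contacts the pre-mRNA near the branch site, rose most of all 43. It lies at chr3:96172506-96177564 on mm10. Its level was 17.7 and 19.2 CPM in siControl late 2-cell and 392 and 326 CPM in siControl morula, a 19.6-fold rise (log2 4.29, SE 0.296, edgeR adjusted p = 2.06e-06) that was 3.20 on the log2(TPM + 1) scale. Both morula libraries lay far above both late 2-cell libraries. Sf3b3, a large scaffold subunit, went from 11.8 and 15.3 CPM to 93.4 and 77.2 CPM (log2 2.66, SE 0.299, edgeR adjusted p = 3.45e-05), and Sf3b2, which bridges SF3B and the branch region, from 23.4 and 23.3 CPM to 146 and 113 CPM (log2 2.48, SE 0.272, edgeR adjusted p = 2.98e-05). Sf3b1, the subunit that encloses the branch-site helix, went from 155 and 255 CPM to 790 and 670 CPM, with a log2 fold change of 1.84. The smallest changes were those of Sf3b5 (1.14) and Sf3b6 (0.76), the small subunits whose TPM was already the highest of the complex. Sf3b6, the protein at the branch-point adenosine, had 313 and 552 CPM at late 2-cell and 703 and 753 CPM at morula. Its call was lost with size factors, total counts and TPM, and its sign turned on TPM (-0.21).

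Subunits of 1 complex stood far apart in RNA level at late 2-cell and less so later. In TPM the most abundant SF3B gene exceeded the least abundant by a median of 139 times at late 2-cell (highest 165), 24.7 to 77.7 times at 4-cell and 27.8 to 44.4 times at morula. The late 2-cell range lay above both others, which overlapped. Among the SF3A genes, Sf3a2, the subunit next to SF3A3 and SF3A1 in the U2 snRNP, was nearly absent at late 2-cell, at 1.92 and 1.77 CPM, and reached 30.0 and 23.4 CPM at morula (log2 3.86, SE 0.493, edgeR adjusted p = 8.63e-05). Sf3a3 went from 68.6 and 98.5 CPM to 321 and 317 CPM, with a log2 fold change of 1.94. Sf3a1 rose by 1.39 with TMM and missed the call on TPM (0.34, limma adjusted p = 0.185).

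The promoters of 4 genes are shown because they pair related genes that differed in their stage change. Srsf3 and Srsf7 encode short SR proteins with close RNA-binding domains, and Sf3a2 and Sf3b6 are subunits of the same snRNP. Each is the 250 bases before the start site chosen by RefSeq (GRCm38.p6, the assembly that mm10 names). Capitals mark TATAA, the TATA box (gene strand, last 50 bases only), and on either strand CCGGAAG, whose core is bound by ETS factors, the GGGCGG of GC boxes, the CCAAT box and the TGACGTCA of CREB sites. The Srsf3 stretch is chr17:29032410-29032659 (+), that of Srsf7 chr17:80207306-80207555 (-), that of Sf3a2 chr10:80798485-80798734 (+) and that of Sf3b6 chr12:4817358-4817607 (+).
Srsf3: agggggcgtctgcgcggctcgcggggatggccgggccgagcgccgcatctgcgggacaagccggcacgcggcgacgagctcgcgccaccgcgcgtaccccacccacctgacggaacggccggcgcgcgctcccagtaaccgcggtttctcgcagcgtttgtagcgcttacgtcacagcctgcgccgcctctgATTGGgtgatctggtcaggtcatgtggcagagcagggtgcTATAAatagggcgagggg
Srsf7: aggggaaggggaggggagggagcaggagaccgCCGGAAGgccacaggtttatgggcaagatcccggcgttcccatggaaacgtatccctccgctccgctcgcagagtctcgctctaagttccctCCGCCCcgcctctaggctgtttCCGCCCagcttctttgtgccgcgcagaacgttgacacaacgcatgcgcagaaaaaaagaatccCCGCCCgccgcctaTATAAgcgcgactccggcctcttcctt
Sf3a2: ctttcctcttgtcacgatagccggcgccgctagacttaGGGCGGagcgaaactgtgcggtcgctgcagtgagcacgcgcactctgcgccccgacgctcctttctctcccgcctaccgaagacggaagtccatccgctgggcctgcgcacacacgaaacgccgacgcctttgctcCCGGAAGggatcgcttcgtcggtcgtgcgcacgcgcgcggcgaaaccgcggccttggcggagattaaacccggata
Sf3b6: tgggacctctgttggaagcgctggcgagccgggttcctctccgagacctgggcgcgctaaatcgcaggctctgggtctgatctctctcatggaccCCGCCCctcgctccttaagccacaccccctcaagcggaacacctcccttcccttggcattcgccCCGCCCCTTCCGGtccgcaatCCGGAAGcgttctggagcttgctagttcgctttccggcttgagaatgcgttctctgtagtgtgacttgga
Srsf3 and Srsf7 both held TATAA, as 1 other of the 38 genes with a promoter entry did (Srsf2), which is 7.89% of the 38 against 5.89% of 27025 promoters in the table and 4.71% of the 12746 whose gene was tested. The ETS-type motif was in 12 of the 38 (31.6%), against 7.83% of all promoters and 13.0% of those of tested genes, and the 12 included Srsf7, Sf3a1, Sf3a2, Sf3a3, Sf3b2, Sf3b3 and Sf3b6. The GC box was in 76.3% of the 38, 35.4% of all and 56.6% of tested genes. The CCAAT box was in 19 of the 38, against 37.5% of all and 40.6% of tested genes. The CREB-type motif was in 0 of the 38, against 1.77% and 2.71%. In the Sf3b6 promoter a GC box and an ETS-type match meet on the opposite strand, so their capitals run together. The motifs were chosen with the sequences in view, and a match is a description of letters.

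Among the SR proteins, Srsf9, Srsf3, Srsf2 and Srsf6 rose. Srsf9, an activator and repressor of alternative exons close in sequence to Srsf1, went from 28.5 and 33.2 CPM in siControl late 2-cell to 235 and 239 CPM in morula (log2 2.95, SE 0.229, edgeR adjusted p = 3.64e-06). Srsf3, the smallest SR protein and one that also acts in mRNA export, went from 219 and 214 CPM to 1530 and 1606 CPM (log2 2.87, SE 0.201, edgeR adjusted p = 2.21e-06). Srsf2, which stays in the nucleus and activates exons, went from 67.9 and 61.1 CPM to 427 and 416 CPM (log2 2.72, SE 0.238, edgeR adjusted p = 7.29e-06), and Srsf6 from 39.2 and 39.1 CPM to 188 and 163 CPM (log2 2.17, SE 0.201, edgeR adjusted p = 1.02e-05). In all 4 both morula libraries lay above both late 2-cell libraries.

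The remaining SR genes did not share that rise. Srsf7, which also acts in mRNA export, was level, at 1053 and 1224 CPM and then 1083 and 1162 CPM. Srsf5 (log2 0.11, SE 0.225), Srsf1 (0.23, SE 0.231), Srsf4 (0.62, SE 0.523) and Srsf10 (-0.21, SE 0.242), the last a repressor that is activated on dephosphorylation, were not called, and for each of these 4 genes the libraries of the 2 stages overlapped. On log2(TPM + 1) Srsf1 (-0.72), Srsf5 (-0.89), Srsf7 (-0.99) and Srsf10 (-1.16) were called lower instead. Srsf11 rose by 0.90 with TMM and was at -0.11 on TPM. Srsf12 had 0 to 1.43 CPM in the 16 libraries, which is too low for a fold change to be read.

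All 3 U2AF genes rose with TMM. U2af2, the large subunit that binds the polypyrimidine tract, went from 4.28 and 3.31 CPM to 35.3 and 34.1 CPM (log2 3.20, SE 0.411, edgeR adjusted p = 9.02e-05). U2af1, the small subunit that reads the terminal AG, went from 93.4 and 131 CPM to 254 and 241 CPM (log2 1.15, SE 0.228, edgeR adjusted p = 0.00164), which was 0.13 and not called on TPM. U2af1l4, a paralogue of U2af1, went from 59.5 and 33.3 CPM to 103 and 72.1 CPM. Its log2 fold change of 0.93 (SE 0.312, edgeR adjusted p = 0.0285) was lost without late 2-cell replicate 2 (0.53) or morula replicate 1 (0.66) and turned to -0.08 on TPM, and its span shares 288 bases with that of Psenen.

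Among the hnRNPs, Hnrnpl, which binds CA-rich RNA, had the largest rise, from 6.85 and 10.9 CPM to 56.6 and 51.3 CPM (log2 2.61, SE 0.292, edgeR adjusted p = 3.36e-05), and its paralogue Hnrnpll rose by 1.99. Hnrnpa0 (2.11), Hnrnpa2b1 (1.96), Hnrnpd (1.92), Hnrnpab (1.79) and Hnrnpk (1.72) followed, all called under the 4 scalings. Hnrnpa2b1 is an A/B-type hnRNP that packages nascent RNA, Hnrnpd binds AU-rich elements and Hnrnpk binds C-rich RNA. Hnrnpu (1.59), Hnrnph2 (1.49), Hnrnpm (1.42) and Hnrnpf (1.17) were called with TMM and not on TPM. Hnrnpa1 (0.87), Hnrnpc (0.94) and Hnrnph1 (0.73) were called with TMM and were below 0 on TPM, at -0.27, -0.04 and -0.27.

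Hnrnpul2, a relative of Hnrnpu, had the larger of the 2 called falls. It had 42.4 and 50.5 CPM in siControl late 2-cell and 10.4 and 8.94 CPM in morula (log2 -2.26, SE 0.264, edgeR adjusted p = 4.67e-05), and every morula library lay below every late 2-cell library. Hnrnph3 went from 36.2 and 54.6 CPM to 29.1 and 25.3 CPM, a log2 fold change of -0.73 (SE 0.28, edgeR adjusted p = 0.0478) that missed the call without late 2-cell replicate 2 (-0.45) or either morula library. RSEM split reads between Hnrnph3 and other loci in all 16 libraries, and it shares 2546 bases with Rufy2. Hnrnpdl (-0.04, SE 0.235) was not called with TMM, and was at -0.67 with total counts and -1.02 on TPM. Hnrnpa3 (0.49), Hnrnpr (0.50) and Hnrnpul1 (0.86) were also not called with TMM, and were at -0.54, -0.44 and -0.55 on TPM.

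The siPcgf5 libraries gave the stage comparison in other pools, which also carry the knockdown. Both stage comparisons came from 1 fit with a shared estimate of the spread, so their calls are not independent. In siPcgf5, 29 genes were higher at morula, 1 was lower and 13 were not called, against 24.5% and 28.2% of all genes. The median log2 fold change was 1.24, against -0.38 over all genes. Of the calls, 29 were shared with siControl in the same direction, 28 higher and 1 lower (Hnrnpul2). Hnrnpa1, Hnrnph3, Sf3b6 and U2af1l4 were called in siControl alone and Hnrnpa3 in siPcgf5 alone, and for none of these 5 did the difference between the 2 stage effects pass the test. Under all 4 scalings 19 genes were higher and 1 lower, and 12 differed in sign. This count was not taken over all 16980 genes, of which TPM alone called 2558 higher and 6846 lower. Leaving out each library in turn kept 27 of the 30 calls and ended those of Hnrnph1, Sf3b5 and U2af1. The largest were much as in siControl. Sf3a2 was at 4.36 (SE 0.507), Sf3b4 at 3.91 (SE 0.29), Srsf3 at 2.99 (SE 0.202), U2af2 at 2.96 (SE 0.406) and Srsf9 at 2.94 (SE 0.229). Sf3b2 came next, with a rise below that of Srsf9 and above that of Srsf2, called under all 4 scalings. Srsf2 was at 2.62 (SE 0.237), Sf3b3 at 2.61 (SE 0.297), Hnrnpl at 2.56 (SE 0.291) and Srsf6 at 2.51 (SE 0.204). Hnrnpul2 was at -2.37 (SE 0.265). Over all genes the share of calls in the higher direction was 46.5% with TMM, 31.4% with total counts and 27.2% with TPM.

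The WT 4-cell libraries fall between the 2 stages in time but come from the deletion experiment, without electroporation and at a lower depth, so that stage and experiment cannot be told apart in what follows. Against siControl late 2-cell, 31 of the 43 genes were higher in WT 4-cell, 2 were lower and 10 were not called, where 17.5% of all genes were called higher and 15.2% lower. Here 27 genes were higher and 2 lower under all 4 scalings, a count that was not taken over all genes. The median log2 fold change of the 43 was 1.36, which was 1.02 on TPM. Over all 16669 genes, 53.6% of calls were higher with TMM and 31.4% with TPM. Total counts gave 2294 higher and 3045 lower, and TPM 2388 and 5225. The largest were Sf3b3 (2.57, SE 0.31), Srsf3 (2.48, SE 0.226), Hnrnpa0 (2.38, SE 0.438), Sf3a2 (2.34, SE 0.518), Srsf2 (2.29, SE 0.301), Sf3b4 (2.11, SE 0.264) and Srsf11 (2.01, SE 0.191). Leaving out each library in turn kept 27 of the 33 calls and ended those of Hnrnpl, Srsf9, Sf3b5, Hnrnpa3, Hnrnpdl and U2af1l4.

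Between WT 4-cell and siControl morula the genes moved in both directions. With TMM 9 rose and 5 fell, against 14.9% and 15.3% of all genes. The balance turned with the scaling, to 4 higher and 11 lower with total counts and 3 and 16 with TPM, where the median went from 0.25 to -0.38. Under all 4 scalings 3 rose and 5 fell, with 16 differing in sign. That count was not taken over all 16669 genes, of which TPM alone called 1678 higher and 3622 lower. The share of all calls in the higher direction was 49.4% with TMM, 34.0% with total counts and 31.7% with TPM. The 3 that rose throughout were Srsf9, Sf3b4 and U2af1l4, and the 5 that fell were Srsf1, Srsf11, Hnrnpr, Hnrnpdl and Hnrnpul2. Leaving out each library in turn kept 6 of the 14 calls, and it ended those of 5 genes that rose (U2af2, Hnrnpd, Hnrnpl, Sf3a2 and Sf3b2) and 3 that fell, namely Hnrnpr (without morula replicate 1 or WT replicate 2), Hnrnpdl and Hnrnpul2 (without any 1 of the 4).

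Together the comparisons separate several courses. Srsf3, Srsf2 and Sf3b3 had most of their change before the 4-cell libraries: Srsf3 was at 972 and 1436 CPM in WT, and its step to morula was 0.38 (SE 0.214). Srsf9 and Sf3b4 had a large later step. Srsf9 was at 45.1 and 57.2 CPM in WT, and its log2 changes were 0.73 (SE 0.216) and then 2.21 (SE 0.224). The first of these lost its call without siControl late 2-cell replicate 1 (0.58) or WT replicate 2 (0.53).

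Srsf1, the founding SR protein, and Srsf11, an SR-like protein, peaked at 4-cell. Srsf11 had 69.9 and 65.7 CPM in siControl late 2-cell, 256 and 291 CPM in WT 4-cell and 138 and 113 CPM in siControl morula, with log2 changes of 2.01 and -1.12 (SE 0.186, edgeR adjusted p = 0.000268). Srsf1 had 142 and 211, 443 and 459, and 211 and 201 CPM, with log2 changes of 1.36 and -1.13 (SE 0.197, edgeR adjusted p = 0.000399). U2af1l4 went the other way, with 20.3 and 23.2 CPM in WT 4-cell below all siControl libraries of the other stages, and its log2 changes were -1.09 (SE 0.347) and 2.01 (SE 0.355). The first of these lost its call without siControl late 2-cell replicate 1 (-0.66) or without either WT library.

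Ratios between related genes within 1 library do not depend on scaling between libraries. They are given as ranges over the 4 late 2-cell, 8 4-cell and 4 morula libraries, with no test. The TPM ratio of Srsf3 to Srsf7 was 0.136 to 0.168 at late 2-cell, 0.648 to 1.18 at 4-cell and 1.13 to 1.24 at morula, so Srsf7 was the more abundant of the pair at first and Srsf3 in all 4 morula libraries. Srsf9 to Srsf1 was 0.866 to 1.09, 0.555 to 0.769 and 4.82 to 6.36, so that Srsf9 stood well above Srsf1 in the morula libraries and near or below it in the others. Srsf5 to Srsf6 was 33.1 to 50.2, 15.0 to 31.7 and 8.58 to 10.3.

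The U2AF heterodimer holds 1 small and 1 large subunit. In RNA, U2af1 exceeded U2af2 by 61.4 to 135 times at late 2-cell, 21.6 to 29.0 times at 4-cell and 17.1 to 20.1 times at morula. U2af2 was low at late 2-cell, at 1.93 to 4.47 TPM, and RNA ratios do not give the ratio of the proteins. Sf3b6 exceeded Sf3b4 by 25.1 to 49.0 times, 10.6 to 31.9 times and 2.76 to 3.88 times, with the first 2 stages overlapping. Sf3a3 exceeded Sf3a2 by 35.1 to 130 times, 17.8 to 57.3 times and 9.51 to 13.3 times, again with the first 2 stages overlapping. Among the hnRNPs, Hnrnpu to Hnrnpul2 was 4.08 to 5.82 at late 2-cell, 28.2 to 97.0 at 4-cell and 70.7 to 91.2 at morula, and Hnrnpa2b1 to Hnrnpa1 was 0.193 to 0.305, 0.311 to 0.525 and 0.672 to 0.829. Hnrnpd to Hnrnpdl was 0.065 to 0.109, 0.0804 to 0.137 and 0.321 to 0.365, with late 2-cell and 4-cell overlapping. Late 2-cell and morula ranges overlapped for U2af1 to U2af1l4, Hnrnpl to Hnrnpll, Hnrnph1 to Hnrnph2 and Hnrnpa3 to Hnrnpa1.

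**Figure D3:**
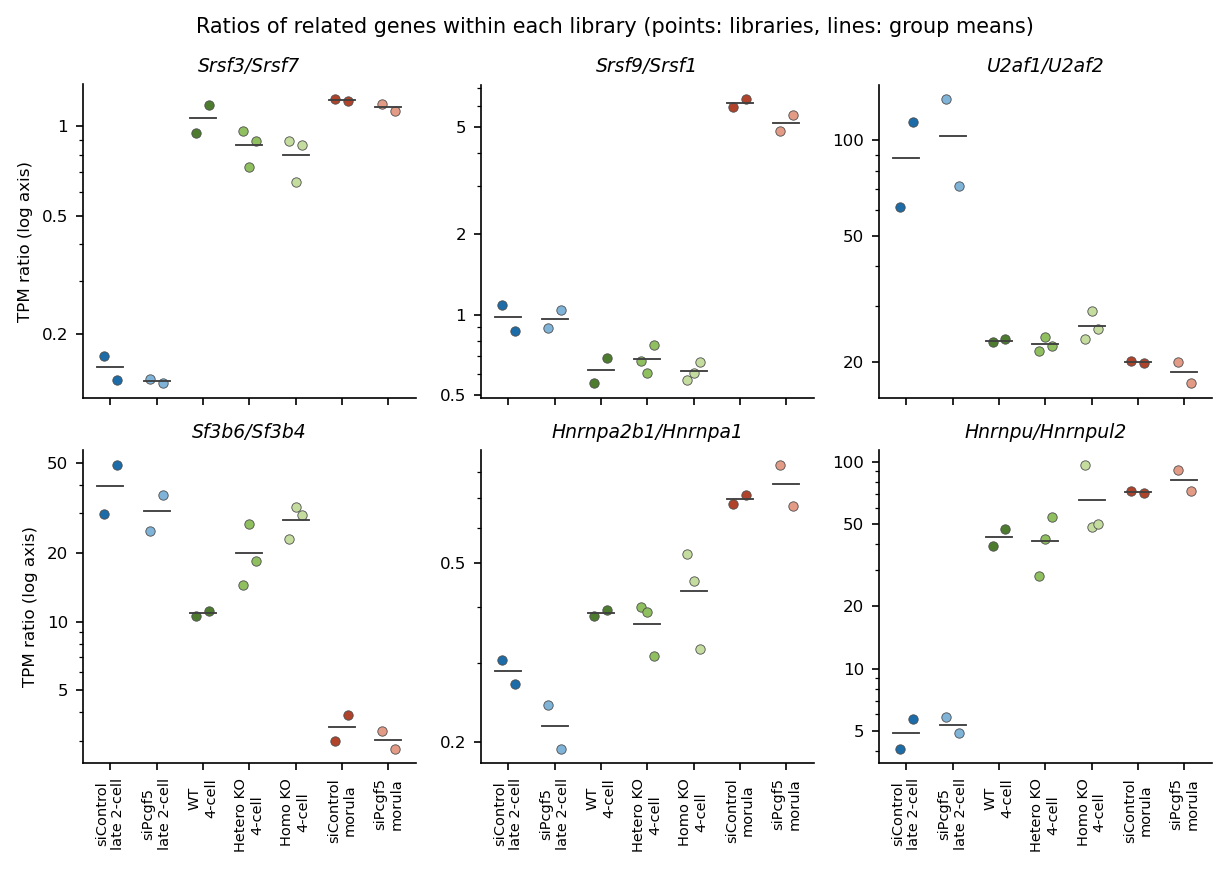
TPM ratios of 6 gene pairs within each of the 16 libraries (y axis, log scale), grouped by stage and treatment or genotype (x axis), with points for libraries and lines for group means. Srsf3 to Srsf7 lies at 0.136 to 0.168 in the 4 late 2-cell libraries, and Srsf9 to Srsf1 lies at 4.82 to 6.36 in the 4 morula libraries.

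The deposited files also give each gene's mean transcript length weighted by the estimated abundance of its isoforms. It moves only when the estimated mix of annotated isoforms does, and that estimate carries its own error. It varied enough to be tested for 19 of the 43 genes. In siControl 5 were called between the stages (limma, adjusted p under 0.05), against 7.91% of 4362 genes tested, and in siPcgf5 5 were called, against 7.66%. Srsf3 had the largest called change that both series shared. Its length was 2896 and 2837 bases in siControl and 2797 and 2913 bases in siPcgf5 late 2-cell, and 2591 and 2591 bases in siControl and 2589 and 2592 bases in siPcgf5 morula, a change of -0.15 log2 units (SE 0.022, limma adjusted p = 0.0298) and -0.14 (SE 0.022, limma adjusted p = 0.0342). The 8 4-cell libraries lay at 2588 to 2617 bases, next to morula. The siControl call was lost when any 1 of its 4 libraries was left out, with changes of -0.13 to -0.16. Srsf3 has 1 coding and 1 non-coding RefSeq transcript, and which of them the longer mean length favours is not given in the sources used here. Autoregulation through a poison exon is well known for Srsf3.

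Hnrnpa1 went from 1379 and 1376 bases to 1551 and 1495 bases in siControl (0.14 log2 units, SE 0.0254, limma adjusted p = 0.0447), and this call was also lost when any 1 library was left out. In siPcgf5 it went from 1373 and 1361 bases to 1465 and 1519 bases, which was not called (limma adjusted p = 0.0675), and its reads are split with other loci. Hnrnpul1 was called in siPcgf5, from 1255 and 1306 bases to 2704 and 2781 bases (1.10 log2 units, SE 0.159, limma adjusted p = 0.0278), and not in siControl, from 1406 and 1939 bases to 2873 and 2735 bases (limma adjusted p = 0.0707). Its level was at most 2.52 TPM, and its 8 4-cell libraries spread from 1233 to 2639 bases. The other called changes, in Hnrnpa2b1, Hnrnpab and Hnrnpr, were 1.41% of the length or smaller.

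**Figure D4:**
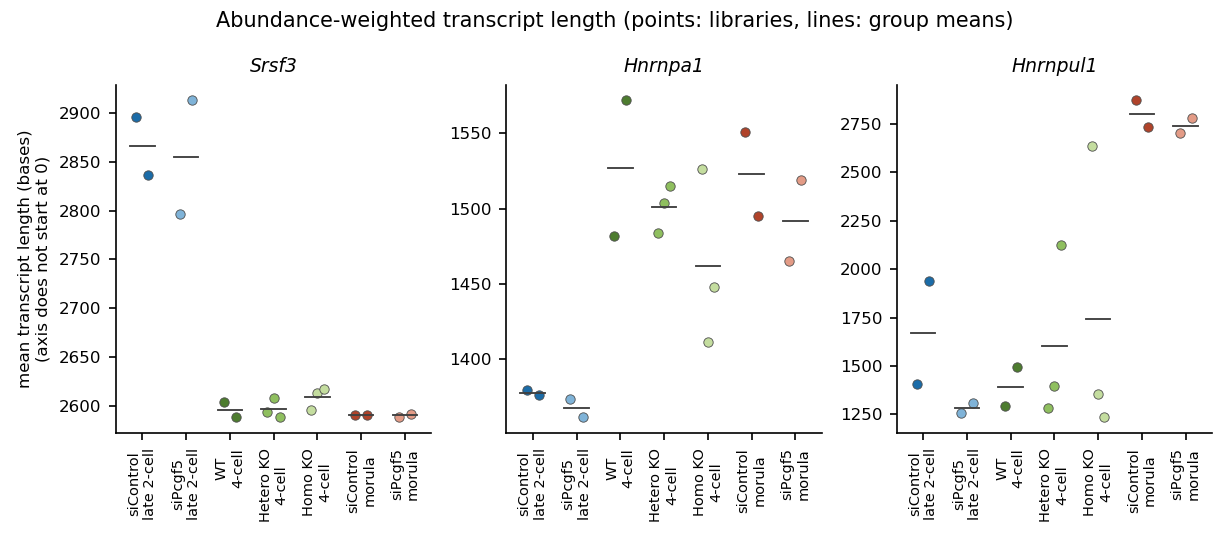
Abundance-weighted mean transcript length in bases (y axis, not from 0) of Srsf3, Hnrnpa1 and Hnrnpul1 in each of the 16 libraries, grouped by stage and treatment or genotype (x axis), with points for libraries and lines for group means. Srsf3 lies at 2797 to 2913 bases in the 4 late 2-cell libraries and at 2588 to 2617 bases in the 12 others.

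The knockdown was compared with its control within each stage to ask whether loss of Pcgf5 RNA moved these genes. No gene of the 43 was called at late 2-cell by edgeR or by any alternative tool run (0.0118% of all genes were called), and 1 of 43 had an unadjusted p under 0.05, against 5.58% of all genes. At morula none was called (0.0% of all genes) and 0 of 43 had an unadjusted p under 0.05, against 4.22%. Pcgf5 itself was thus not called at morula, although it lay at 166 to 246 CPM in siControl and 32.4 to 39.5 CPM in siPcgf5. In simulated counts for the late 2-cell knockdown comparison, the same test recovered 6% of genes changed by 1 log2 unit. It recovered 44% of those changed by 2. The median log2 differences were 0.09 at late 2-cell and 0.10 at morula, and single libraries set their sign and size. The first was -0.025 without siControl replicate 1, 0.20 without siControl replicate 2 and 0.0048 on TPM, and the second was -0.0069 without siControl replicate 2 and 0.16 without siControl replicate 1. The smallest p at late 2-cell was that of Hnrnpa3, an A/B-type hnRNP, with 88.9 and 87.7 CPM in siControl and 68.8 and 56.8 CPM in siPcgf5 (log2 -0.48, SE 0.211, edgeR adjusted p = 0.886). Sf3b4 (0.55, SE 0.262), Sf3b5 (0.40, SE 0.201), Hnrnph2 (0.49, SE 0.254) and U2af1 (0.33, SE 0.226) came next.

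At morula the smallest p values were those of Srsf6 (0.35, SE 0.193), Srsf1 (0.35, SE 0.231), Hnrnpll (0.30, SE 0.3), Hnrnpf (0.26, SE 0.274) and Srsf2 (0.20, SE 0.223). Srsf1 had 211 and 201 CPM in siControl and 278 and 251 CPM in siPcgf5 morulae, with no overlap. Of the 43 genes, 13 had both siPcgf5 morula libraries above both siControl libraries and 4 had both below, against 14.4% and 17.0% of all genes. The difference between the 2 knockdown effects was called for no gene (0.0% of all genes; 0 of 43 at an unadjusted p under 0.05, against 4.96%, and 0 by any alternative). Its smallest p values were those of Hnrnpa3 (0.60, SE 0.297), Sf3b5 (-0.53, SE 0.283), U2af1 (-0.49, SE 0.319), Srsf6 (0.33, SE 0.273) and Hnrnpa2b1 (0.36, SE 0.335). The late 2-cell marker sum was 1410 to 1650 CPM in siControl and 2130 to 2820 CPM in siPcgf5 late 2-cell libraries. A p that misses the threshold does not show that the groups are alike.

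Among the 4-cell embryos, 42 of the 43 genes passed the filter on low counts (Srsf12 did not). None was called between Homo KO and WT by edgeR (0.0% of all genes), 7 of 42 had an unadjusted p under 0.05, against 12.4% of all genes, and 1 gene, Srsf10, was called by the DESeq2 Wald test, which called 237 of all 13766 genes higher and 96 lower, and by edgeR without the filter, which called 38 and 21 of 18903, so that 1 call is close to the background of the Wald test. Srsf10 had 283 and 305 CPM in WT, 417, 543 and 345 CPM in Hetero KO and 515, 618 and 573 CPM in Homo KO. All Homo KO and all Hetero KO libraries lay above both WT libraries, and the 2 KO groups overlapped. The log2 difference of Homo KO from WT was 0.96 (SE 0.207, edgeR adjusted p = 0.221), with a DESeq2 adjusted p of 0.00556 and an edgeR adjusted p of 0.0406 without the filter, and its other alternatives gave adjusted p from 0.199 to 0.617 with sizes of 0.88 to 1.03. Its level was 293 to 478 CPM in the late 2-cell libraries and 307 to 340 CPM in morulae. The late 2-cell marker sum was 186 to 317 CPM in Homo KO, 41.0 to 97.5 CPM in Hetero KO and 20.8 and 231 CPM in WT. The sum of 8 cumulus genes was 5.04 to 13.8 CPM in Homo KO (Has2, Amh, Inhba and Fshr at 0) and 1.71 to 2.21 CPM in WT, and that of 6 blood genes was 62.0 to 83.3 CPM against 20.2 to 48.3 CPM. Oocyte genes summed to 1240 to 2030 CPM in Homo KO and 1140 to 1190 CPM in WT, and morula genes to 29.7 to 53.0 CPM and 55.0 to 63.1 CPM, so both sets also separated the 2 groups. Their part in the result was not tested.

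The next smallest p values for Homo KO against WT were those of Sf3b6 (0.60, SE 0.183), Sf3b4 (-0.75, SE 0.232), Hnrnpdl (0.44, SE 0.173) and Hnrnpm (-0.45, SE 0.182). Sf3b4 had 78.5 and 80.8 CPM in WT, 65.5, 46.0 and 58.1 CPM in Hetero KO and 54.7, 47.9 and 39.2 CPM in Homo KO, so that all KO libraries lay below WT. The TPM ratio of Sf3b6 to Sf3b4 was 10.6 and 11.2 in WT, 14.5 to 26.9 in Hetero KO and 23.0 to 31.9 in Homo KO. Hnrnpdl, an AU-rich element binding protein, had 265 and 284 CPM in WT, 270, 259 and 279 CPM in Hetero KO and 406, 399 and 309 CPM in Homo KO.

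Between Hetero KO and WT no gene was called (0.0% of all genes; 7 of 42 at an unadjusted p under 0.05, against 4.76%; 0 by any alternative run). The smallest p values were those of Hnrnpa3 (-0.65, SE 0.224), Srsf10 (0.56, SE 0.204), Hnrnpa2b1 (-0.57, SE 0.208), Srsf1 (-0.41, SE 0.153) and Srsf2 (-0.74, SE 0.28). Hnrnpa3 had 142 and 147 CPM in WT, 85.1, 77.4 and 115 CPM in Hetero KO and 125, 130 and 175 CPM in Homo KO. Srsf2 had 294 and 339, then 153, 146 and 269, then 234, 160 and 254 CPM, with every KO library below WT. Between Homo KO and Hetero KO, where again no gene was called (0.0% of all genes; 4 of 42 at an unadjusted p under 0.05, against 8.22%), the smallest p values were those of Hnrnpa3 (0.64, SE 0.204), Hnrnpdl (0.47, SE 0.154), Hnrnph2 (-0.47, SE 0.172), Hnrnpl (0.86, SE 0.32) and Srsf10 (0.39, SE 0.18). The 3 genotype comparisons share their libraries, and in simulated counts for Homo KO against WT the same test recovered 10% of genes changed by 1 log2 unit and 40% of those changed by 2.

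**Figure D5:**
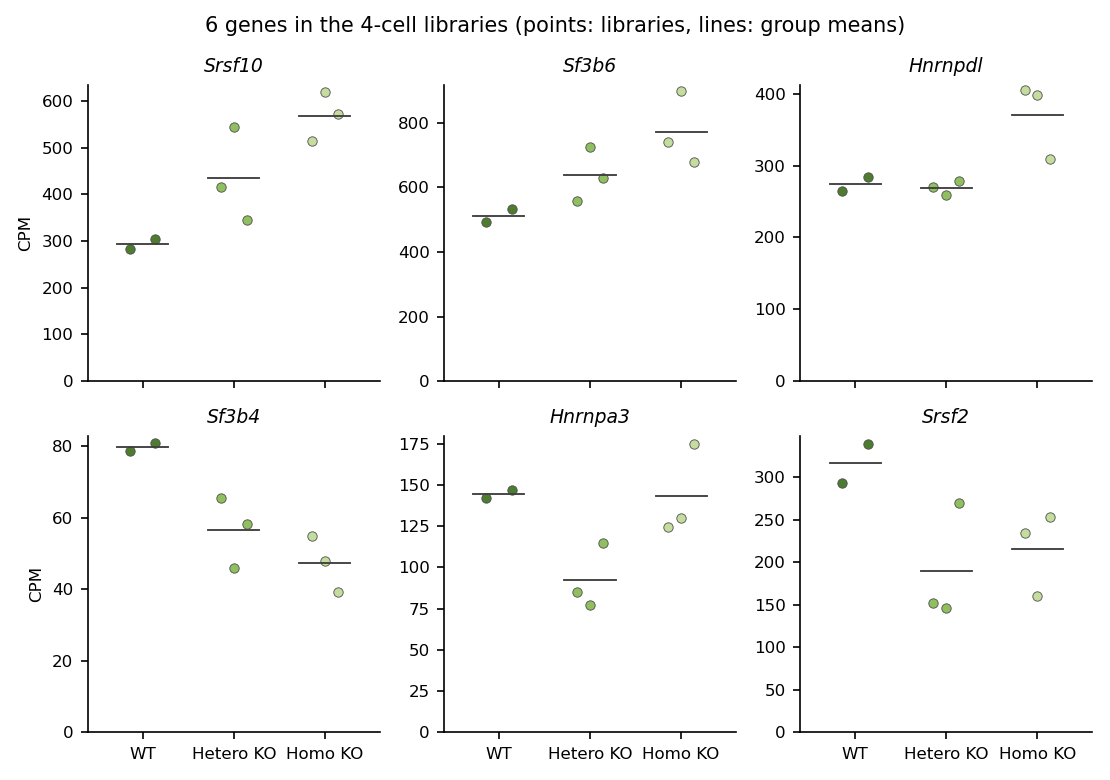
CPM (y axis, from 0) of 6 genes in the 2 WT, 3 Hetero KO and 3 Homo KO 4-cell libraries (x axis), with points for libraries and lines for group means. Srsf10 lies at 515 to 618 CPM in Homo KO and 283 to 305 CPM in WT, and Sf3b4 at 39.2 to 54.7 CPM and 78.5 to 80.8 CPM, with neither difference called by edgeR.

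Other genes of the spliceosome and its regulators were taken from 8 lists (135 genes, of which 132 were tested). Between siControl late 2-cell and morula 78 of the 132 were higher and 16 lower, against 24.9% and 28.1% of all genes, and in siPcgf5 73 and 15, against 24.5% and 28.2%. None was called by edgeR in the knockdown or genotype comparisons, in each of which at most 0.0118% of all genes were called. These counts moved with the scaling: 69 higher and 17 lower with size factors, 50 and 28 with total counts and 40 and 43 with TPM. Of all 16980 genes, TPM called 2452 higher and 7388 lower, and total counts 2876 and 6280. Genes named are those with the smallest p of each list, not the largest changes, unless said otherwise. Values that follow are with TMM, with the TPM counts beside them.

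Of the 13 core snRNP, U1 and U2 proteins, 12 rose and none fell (median 1.64; 7 and 1 on TPM), among them Snrpb (3.47), Snrpd3 (2.37), Snrpd2 (2.03) and Snrpn (2.57), which are Sm ring proteins. Of 21 tri-snRNP proteins 15 rose and 1 fell (median 1.41; 10 and 5 on TPM), among them Lsm4 (4.46), Lsm5 (3.62) and Lsm3 (2.63), parts of the ring that binds U6 snRNA, and Txnl4a (2.18). Of 17 proteins of the Prp19 complex and related factors 13 rose and 1 fell (median 1.11; 5 and 3 on TPM), with Ppil1 (3.56), Ppie (2.41), Xab2 (3.30) and Snw1 (1.66). Of 14 U2-associated factors 8 rose and 3 fell (median 0.96, and -0.05 with 4 and 6 on TPM), with the helicases Ddx39b (3.17) and Dhx15 (1.91), Puf60 (2.07) and the branch-point binder Sf1 (1.97). The exon junction complex had 3 of 5 higher (Magohb, 2.26, Eif4a3, 1.99, and Rbm8a, 1.21; 2 higher and 2 lower on TPM), and Casc3 was not called (0.22).

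Of 10 kinases and importers that act on SR proteins 4 rose and 3 fell (median 0.22, and -0.70 with 0 and 6 on TPM). Srpk2 fell from 73.0 to 110 CPM over the late 2-cell libraries to 7.22 to 13.0 CPM over the morula libraries (log2 -2.71 in siControl and -3.54 in siPcgf5), Dyrk1a fell by 1.58 on the log2 scale, and Srpk1 (1.20) and Dyrk3 (1.70) rose with TMM but not on TPM. Srpk1 and Srpk2 both phosphorylate the RS domain. Of 19 SR-related proteins 9 rose and 1 fell (median 0.92, and -0.08 with 3 and 8 on TPM), with Rnps1 (1.89), Srrm2 (2.04), Thrap3 (1.89) and Srrm1 (1.28). Of 33 other regulators 14 rose and 7 fell (median 0.48, and -0.40 with 9 and 12 on TPM), with Tardbp (3.35), Pcbp1 (2.55) and Syncrip (2.11) among those that rose. Esrp2, an epithelial splicing regulator, was at 0 to 0.319 CPM in the late 2-cell libraries and 8.74 to 12.1 CPM in the morula libraries. Its paralogue Esrp1 went the other way, from 30.1 to 43.4 CPM at late 2-cell to 6.84 to 9.14 CPM at morula (log2 -2.08 in siControl, edgeR adjusted p = 0.000199). The other 6 that fell were Ptbp2 (-3.66), Mbnl3 (-2.57), Celf2 (-2.04), Mbnl1 (-1.86), Khdrbs1 (-1.06) and Ptbp3 (-0.80), and these and Esrp1 were added after their values were seen.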

How the data were processed

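RNA-seq of 16 pools was analysed, and 4 ChIP libraries were not analysed here. The deposited gene tables hold expected counts, TPM and a gene length from RSEM, per the file headers, and the submitters' processing notes name STAR 2.7.10, RSEM 1.3.3 and mm10 without saying which step used which. Expected counts were rounded and tested with edgeR 4.0.16 (TMM, filterByExpr with a minimum count of 10, robust quasi-likelihood F test, Benjamini-Hochberg at 0.05) in the 8 knockdown libraries (16980 genes), the 8 4-cell libraries (13766) and all 16 (16669), with 1 coefficient per group. All printed CPM use the TMM factors of the 16 libraries. The deposited TPM values, which the authors normalised per transcript length, were tested as log2(TPM + 1), with a pseudocount of 1, by limma 3.58.1, and the log2 gene length by the same tool. A length is in bases and is the mean over isoforms that RSEM reported.

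The genes follow a naming rule, and both they and the pathway lists were chosen with earlier results of these data known. Statistics are given for most of the 10 largest rises and falls that passed the threshold with no overlap between groups. They are also given for the 5 smallest p where fewer than 5 passed, for fixed pairs of related genes, and for the 4 smallest p of each pathway list. RSEM split reads between loci (counts not whole within 0.01) for Hnrnpa1, Hnrnpa3, Hnrnpf, Hnrnph3, Hnrnpk and Srsf4, and 11 of the 43 genes overlap another listed gene. All 43 symbols matched RefSeq and 38 had a promoter entry. The fits were checked on simulated data in which few genes changed. For siControl morula against siControl late 2-cell, 0% of changes of 1 log2 unit and 50% of those of 2 were recovered. For WT 4-cell against siControl late 2-cell, 4% and 22% were recovered. These 2 simulations gave 8 and 1 false calls. In the data far more genes were called between stages (24.9% higher and 28.1% lower in siControl), which eases the adjusted threshold. The recovery in these 2 simulations therefore does not give the power of the stage comparisons. Alternatives were DESeq2 1.42.0 (size factors and Wald test), no filter, only the groups compared, a replicate block, leaving out each library, and total counts without TMM, the last chosen after seeing the data. The precision of each value depends on the library totals and on the spread between the 2 to 3 libraries per group. The common coefficient of variation was 0.46 in the fit of the knockdown libraries and 0.52 in that of the 4-cell libraries.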

Additional observations from a re-analysis of the deposited data

How the results depend on the processing

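Members called lower between siControl late 2-cell and morula were 2, and 6 with total counts, 8 with limma on log2(TPM + 1), 1 with the replicate block, 1 with only the groups compared and 1 to 3 when a library was left out, and those called higher were 18 on TPM. On TPM the log2 fold changes of Srsf11 (-0.11), Hnrnpc (-0.042), Hnrnph1 (-0.27), Hnrnpa1 (-0.27), U2af1l4 (-0.080) and Sf3b6 (-0.21) reversed there, as did Hnrnph1 (-0.13), Sf3b5 (-0.27) and U2af1 (-0.21) in siPcgf5. In siPcgf5 the TPM counts were 19 higher and 6 lower, and the lower count was 5 with total counts and 2 with size factors, the DESeq2 Wald test or only the groups compared. For WT 4-cell against siControl late 2-cell the lower count was 4 with total counts and on TPM, 1 with only the groups compared, and 1 to 2 with a library left out. For siControl morula against WT 4-cell the counts were 4 higher and 11 lower with total counts and 3 and 16 on TPM, and with a library left out 4 to 7 higher and 2 to 3 lower. The median there reversed to -0.10 with total counts and to -0.38 on TPM. In Homo KO 1 gene was called higher with no filter (38 of all 18903) and 1 with the DESeq2 Wald test (237 of all 13766). The 5 gene lengths called in siControl became 1 with the replicate block and 1 to 5 with a library left out. The cause was not tested in these cases. Deviations of same-numbered libraries from their group means correlated at -0.276 to 0.352. With 2 to 3 libraries per group these deviations are not independent, and in groups of 2 they mirror each other. The correlations therefore cannot show whether same-numbered pools shared a fertilisation or a batch, and the main fits used no pairing. The 2 to 3 libraries per group limit what can be called.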
